A study of Mus musculus with 12 samples.

Results

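Whole testes of 10-day-old mice in which Rb1, the gene of the retinoblastoma protein, was deleted in Sertoli cells (SC-RbKO, KO 1 to KO 4) were compared with wild type testes (WT 8 to WT 12). These 9 of the 12 arrays of the series were taken by their titles. The 3 SC-Rb+/- arrays entered the normalization, the detection filter, the choice of probe and the shared estimate of spread, but neither group mean. The mice came from matings of Amh-Cre males, whose Cre recombinase is driven by the anti-Müllerian hormone promoter of Sertoli cells, with females carrying floxed Rb on both alleles. Total RNA was hybridised to Illumina MouseWG-6 v2 BeadChips, on which bead-bound probes report the brightness of each transcript. Whether the wild type mice carried Cre or a floxed allele, and whether an array held RNA of 1 mouse or of several, was not stated in the labels. No label says that arrays of a group came from separate mice or litters, so the p-values measure only the spread between these samples.

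The retinoblastoma protein binds E2F transcription factors in resting cells and represses genes needed for DNA replication. When cyclin-dependent kinases phosphorylate it, E2F is released and the cell enters S phase. Sertoli cells nurse the germ cells, divide in fetal and early postnatal life and leave the cell cycle before puberty. At 10 days of age the tubules of the mouse also hold spermatogonia and the first cells in meiotic prophase, while Leydig, peritubular myoid, endothelial and blood cells lie outside or around them. RNA of all these cells was measured together, so fewer cells of a type and less RNA per cell cannot be told apart.

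Markers of the testis were present in both groups. The Sertoli cell gene Amh, the hormone whose promoter drove Cre, had a log2 normalized intensity of 9.21 ± 0.19 in KO (SD, n = 4) and 9.21 ± 0.53 in WT (SD, n = 5). Sox9, a Sertoli cell transcription factor, had means of 12.75 and 12.77. Dazl, an RNA-binding protein of germ cells, had 11.37 in both groups, and Acta2, the smooth muscle actin of peritubular cells, had 14.42 and 14.37. Median intensities before normalization spanned 52.2 to 60.2 in KO and 52.5 to 58.6 in WT, and between 39.3 and 43.6% of probes were detected per array. WT 12 stood apart: its genes had an SD of 0.33 about the WT mean, and 177 genes differed from that mean by at least 1 on the log2 scale. In the other 8 arrays these values were 0.207 to 0.269 and 28 to 64 genes.

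Rb1 itself, on chromosome 14, was read by 2 probes. The brighter probe gave 9.26, 8.65, 8.74 and 8.61 in KO 1 to KO 4 and 9.19, 9.31, 9.04, 8.83 and 8.99 in WT 8 to WT 12. KO 2, KO 3 and KO 4 lay below every WT array and KO 1 lay among them. Brighter-probe readings thus differed by -0.26 (SE 0.15, limma unadjusted p = 0.103, adjusted p = 1). Leaving out KO 1 gave -0.41. The dimmer probe gave 7.74, 7.33, 7.11 and 7.15 in KO and 7.68, 8.15, 7.88, 7.66 and 7.63 in WT, a difference of -0.47 (SE 0.14, limma unadjusted p = 0.00579, adjusted p = 1). The same 3 KO arrays were low on it and KO 1 was again within the WT range. Cells other than Sertoli cells kept the gene, and where the probes lie with respect to the floxed stretch was not analysed here, so the values do not check the labels. Among the 20 measured genes on each side of Rb1, 22 were higher and 18 lower in KO, 1 had arrays that did not overlap (Piwil2), and the median difference was 0.0211.

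Across the 11076 genes detected on at least 3 arrays, differences between KO and WT were small and went almost equally in both directions. KO means were above WT means for 5590 genes (50.5%) and below for 5486 (49.5%), with a median difference of 0.0016. The median size of the difference was 0.0731 on the log2 scale, and 90% of genes differed by less than 0.202. A total of 582 genes (5.25%) differed by at least 0.25, which is 1.19-fold, with 282 higher and 300 lower in KO. At 0.5 or more, 1.41-fold, there were 64 genes (26 higher, 38 lower), and at 1 or more, 2-fold, there were 10 (0.0903%; 6 higher, 4 lower).

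On the log2 scale after the offset, the arrays bounded the differences in whole-testis RNA as well as failing to resolve them. The offset understates changes of dim genes. In limma the number of genes past an adjusted p of 0.05 was 0 (0%), the smallest adjusted p being 1, while 284 genes (2.56%) had an unadjusted p under 0.05, 178 of them higher (1.61%) and 106 lower (0.957%) in KO. The 95% interval of the difference lay wholly within 1 on the log2 scale for 10898 genes (98.4%), within 0.5 for 9321 (84.2%) and within 0.25 for 1854 (16.7%). For the median gene this interval reached 0.257 to either side. The SC-Rb+/- arrays shared in this estimate of spread. With only KO and WT arrays in the fit, 614 genes had a limma unadjusted p under 0.05. For 9495 genes (85.7%) the KO mean lay inside the range of the 5 WT arrays. KO arrays were closer to one another than WT arrays were: the median SD of a gene was 0.11 in KO and 0.152 in WT, or 0.137 without WT 12, and the KO SD was the smaller in 7634 genes (68.9%). As a distance, the root mean square difference over genes was taken for each pair of arrays. Its median was 0.27 between KO arrays, 0.302 between WT arrays and 0.278 between a KO and a WT array. By these medians pairs from different groups were no farther apart than pairs within WT, which spanned 0.22 to 0.417. Pairs with WT 12 were included, and medians without it were not computed.

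**Figure D1:**
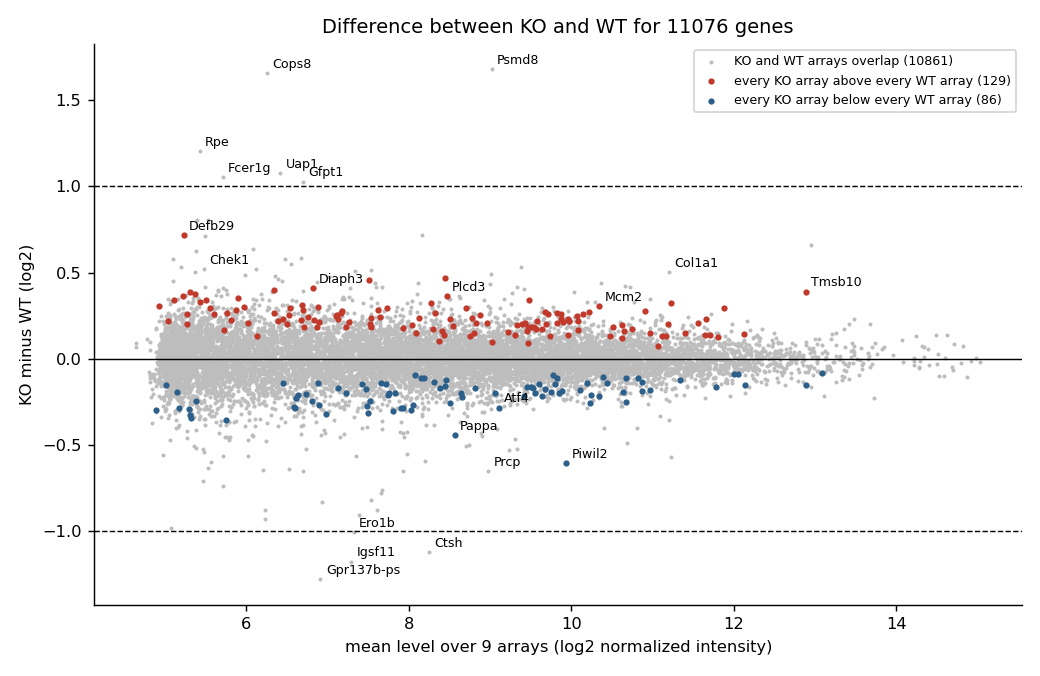
Each point is a gene, with its mean log2 normalized intensity over the 9 arrays on the horizontal axis and the difference KO minus WT (log2) on the vertical axis; dashed lines mark 2-fold. The 129 red and 86 blue genes, whose KO arrays all lie above or below every WT array, are mostly within 0.5 of 0, and the 10 genes beyond 2-fold are all grey, because their arrays overlap.

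Separation of the arrays gives a second view that depends less on size. Every KO array lay above every WT array for 129 genes (1.16%) and below every WT array for 86 (0.776%), together 215 genes (1.94%) of which 60% were higher. Of these, 97 also had an unadjusted p under 0.05 (64 higher, 33 lower). This split depended on the scaling: after scaling each array to the same median in place of quantile normalization, 33 genes were higher and 54 lower (37.9% higher), and 46 genes were shared with the 215. The higher genes differed by 0.0739 to 0.718 (median 0.219) and the lower genes by 0.0851 to 0.607 (median 0.192). The gap between the nearest KO and WT arrays was narrow, with a median of 0.0464 for higher and 0.0288 for lower genes, and it reached 0.1 in 13 higher and 9 lower genes. Without WT 12, 391 genes did not overlap (224 higher, 167 lower).

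Plcd3, a phospholipase C that cleaves a membrane phosphoinositide, had the smallest p-value. It read 8.60, 8.68, 8.64 and 8.76 in KO 1 to KO 4, and 8.42, 8.25, 8.12, 8.29 and 8.44 in WT 8 to WT 12. All KO arrays were above all WT arrays with a gap of 0.16, and the difference was 0.36 (SE 0.08, limma unadjusted p = 0.00083, adjusted p = 1). Diaph3, a formin that builds actin filaments and acts in cytokinesis, read 6.81, 7.16, 7.09 and 7.16 in KO and 6.68, 6.74, 6.51, 6.56 and 6.73 in WT. KO 1 was the nearest to WT and still above it, and the difference was 0.41 (SE 0.10, limma unadjusted p = 0.00119).

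Chek1, the kinase that halts the cycle when replication stalls, differed more but overlapped. Its readings were 5.42, 5.87, 5.96 and 5.83 in KO against 5.11, 5.24, 5.46, 5.12 and 5.32 in WT, where 3 of the 5 arrays detected it. KO 1 fell among the WT arrays, and the difference was 0.52 (SE 0.12, limma unadjusted p = 0.000878) and 0.64 without KO 1. Jade2, a PHD finger protein of histone acetyltransferase complexes, stood at 5.53 to 5.65 in KO and 5.07 to 5.41 in WT, with detection on 3 WT arrays and a difference of 0.38. A second, dimmer Jade2 probe differed by 0.25 with overlapping arrays. Crocc, rootletin of the ciliary rootlet, was at 7.83 to 7.95 in KO and 7.47 to 7.72 in WT, a difference of 0.30 with no overlap.

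The rest of the 12 genes with the smallest p-values among those higher in KO came from several functions. Col1a1, the chief chain of type I collagen, read 11.76, 11.21, 11.37 and 11.56 in KO and 10.91, 11.40, 10.77, 10.95 and 10.83 in WT. Only WT 9 reached into the KO range, and the difference was 0.50 (SE 0.15, limma unadjusted p = 0.00419). Chaf1b, which helps to place histones on newly copied DNA, read 8.84, 9.16, 9.28 and 9.19 against 8.69, 8.69, 8.72, 8.84 and 8.95, with KO 1 again among the WT arrays (difference 0.34). Separated without overlap were the Wnt receptor Fzd8 (0.34, detected on 1 of 5 WT arrays), the ligand Bmp8a (0.36, detected on 3 of 5), the laminin receptor subunit Itga3 (0.31, a gap of 0.011), the DNA polymerase alpha subunit Pola2 (0.32) and the guanine nucleotide exchange factor Arhgef10 (0.29, and 0.21 with overlap on a second probe). All had limma adjusted p = 1, and since p-values on these arrays chose them, their separation adds nothing to the p.

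Larger differences without overlap were rare. Defb29, a beta-defensin, read 5.19, 5.26, 5.15 and 6.92 in KO and 4.84 to 5.01 in WT, where 0 of 5 arrays detected it. It was detected on all 4 KO arrays and was at least 1.41-fold higher in KO (limma unadjusted p = 0.0266, adjusted p = 1), and KO 4 alone set most of that difference. With detection on 2 SC-Rb+/- arrays besides, Defb29 passed the filter of 3 arrays only through KO, so its p-value is no support. Tmsb10, which binds actin monomers, stood at 12.98 to 13.19 in KO and 12.42 to 12.97 in WT, a difference of 0.39 and a gap of 0.005. Its other 2 probes differed by 0.28 and 0.29 with overlapping arrays. Fgd1, an exchange factor for Cdc42, stood at 8.56 to 8.81 in KO and 7.79 to 8.53 in WT (0.47), Plekhj1 at 7.57 to 7.88 and 7.07 to 7.53 (0.46) and Ttc38 at 6.51 to 6.68 and 5.79 to 6.50 (0.40). In these 3 genes WT 12 was the lowest array, and without it the differences were 0.36, 0.40 and 0.30. Adgrl3, an adhesion receptor, had the widest gap of the higher genes, 0.213, with 5.46 to 5.64 in KO and 5.00 to 5.25 in WT, while its other probe was detected on 1 KO and 2 WT arrays only, too near background to compare.

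Genes lower in KO had larger p-values. Sult6b1, a sulfotransferase family member, had the smallest among them, reading 5.79, 5.39, 5.42 and 5.28 in KO and 5.84, 5.70, 5.91, 5.82 and 6.00 in WT. KO 1 overlapped WT, and the difference was -0.38 (SE 0.11, limma unadjusted p = 0.0037, adjusted p = 1). A second probe was detected on 1 KO and 3 WT arrays only. Prcp, a lysosomal carboxypeptidase, read 8.49, 8.66, 8.64 and 8.66 in KO and 9.24, 9.49, 9.52, 9.45 and 8.61 in WT. WT 12 was at the KO level and the other 4 WT arrays were well above it, so the difference was -0.65 (SE 0.19) with all arrays and -0.82 without WT 12. The nucleolar kinase Nol9 (-0.34), detected on 2 KO and 4 WT arrays, the hydroxylysine kinase Hykk (-0.32), the zinc finger gene Zfp760 (-0.30) and the stress-induced Osgin1 (-0.56) overlapped as well. In Osgin1, KO 4 read 6.27 and the other KO arrays 5.51 to 5.54, against 5.84 to 6.53 in WT.

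Several lower genes were separated. Ell3, of a family of RNA polymerase II elongation factors, read 7.43, 7.37, 7.33 and 7.14 in KO and 7.65, 7.58, 7.60, 7.67 and 7.68 in WT, a difference of -0.32 with a gap of 0.146. Anapc16, a subunit of the anaphase-promoting complex, read 10.66, 10.49, 10.40 and 10.57 against 10.74, 10.73, 10.84, 10.83 and 10.78, a difference of -0.25 (SE 0.08). Atf4, the transcription factor of the integrated stress response, read 8.84, 9.07, 9.06 and 8.83 against 9.14, 9.19, 9.34, 9.39 and 9.12 (-0.28). The WT arrays of Anapc16 lay close together, from 10.73 to 10.84, while a second Atf4 probe switched between 4.64 and 7.94 across arrays of both groups. Ccdc68 differed by -0.32 without overlap. Rrp1, a nucleolar protein of ribosome assembly, was detected on all 5 WT arrays and 0 of 4 KO arrays and was at least 1.1-fold higher in WT (limma unadjusted p = 0.00805, adjusted p = 1). Its gap was 0.005. With detection on 2 SC-Rb+/- arrays besides, Rrp1 passed the filter of 3 arrays only through WT, so its p-value is no support.

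Pappa, a protease that frees insulin-like growth factors from a binding protein, had the widest gap of all genes, 0.232. It read 8.29, 8.33, 8.39 and 8.26 in KO and 8.92, 8.78, 8.62, 8.81 and 8.68 in WT, a difference of -0.45 (SE 0.20, limma unadjusted p = 0.0481, adjusted p = 1). Piwil2, a piRNA-binding protein of germ cells, had the largest difference without overlap among genes lower in KO, -0.61, on readings of 9.55, 9.61, 9.63 and 9.62 in KO and 9.75, 9.76, 9.64, 10.39 and 11.49 in WT. WT 12 and WT 11 set its size: WT 10 was 0.017 above the highest KO array, and without WT 12 the difference was -0.29. The chaperone Hspa4 (-0.34, detected on 2 KO arrays), the J-domain protein Dnajc25 (-0.33, detected on 3), the channel and kinase Trpm7 (-0.31) and the ribosome assembly factor Fcf1 (-0.30) made up the rest of the lower genes with the largest separated differences.

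**Figure D2:**
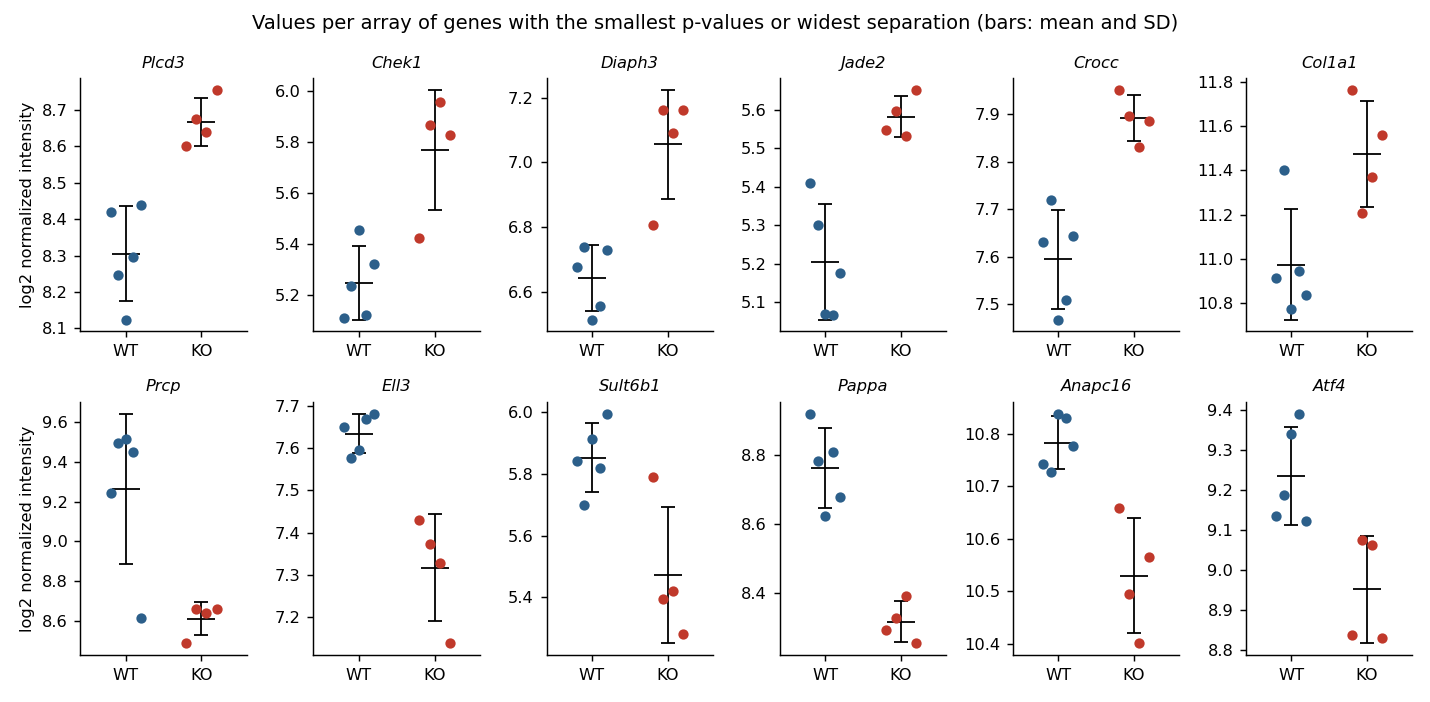
Values per array (points, log2 normalized intensity on the vertical axis, each panel with its own range) for 6 genes higher and 6 lower in KO, with bars for the mean and SD of 5 WT and 4 KO arrays. The panels of Plcd3, Diaph3, Jade2, Crocc, Ell3, Pappa, Anapc16 and Atf4 show no overlap, while 1 KO array of Chek1 and Sult6b1 and 1 WT array of Col1a1 and Prcp fall within the other group.

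Other genes with a gap of at least 0.1 were chosen after their values were seen. Higher in KO were Ptprf, a receptor phosphatase (9.62 to 9.74 in KO, 9.13 to 9.42 in WT), Daam2, a formin (7.75 to 7.85, 7.37 to 7.60), Taf6l, a subunit of histone acetyltransferase complexes (6.80 to 6.89, 6.50 to 6.66), Sorl1, a sorting receptor (8.78 to 9.00, 8.52 to 8.66), and Mettl9. So were Foxo3, a forkhead factor (8.84 to 9.01, 8.60 to 8.72), and catalase, Cat (5.92 to 6.40, 5.67 to 5.82). Lower in KO were Lrrfip2, the splicing gene Snrnp35, Golm2, the autophagy gene Atg101 and Smad5, a transducer of BMP signals that read 8.68 to 8.75 in KO and 8.85 to 8.96 in WT. These differences lay between -0.29 and 0.35. Second probes detected on every array did not separate: they differed by 0.04 for Daam2, -0.02 for Mettl9, 0.05 for Snrnp35 and 0.04 for Smad5, and by -0.05 and -0.13 for Lrrfip2.

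E2F target genes are the textbook readout of lost retinoblastoma protein. Of 48 measured genes of G1/S and DNA replication, 37 were above and 11 below 0, with a median difference of 0.084 where that of all genes was 0.0016. Unadjusted p was under 0.05 for 8 members, all higher, beside 1.61% of all genes, and arrays did not overlap for 7, all higher, beside 1.16% of all genes. None passed adjustment (limma, 0 of 48). The list was known from earlier results of these data to lean this way, so the count is no independent evidence.

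The separated members were subunits of the replication machinery. Mcm2, Mcm4 and Mcm6 belong to the helicase that unwinds DNA at the fork. Mcm2 read 10.50, 10.54, 10.57 and 10.45 in KO and 10.32, 10.33, 10.04, 10.26 and 10.08 in WT, a difference of 0.31 (SE 0.09, limma unadjusted p = 0.00592, adjusted p = 1). Mcm4 read 11.69, 11.77, 11.89 and 11.81 against 11.65, 11.60, 11.49, 11.54 and 11.51 (0.23), and Mcm6 read 10.99, 11.17, 11.10 and 11.00 against 10.79, 10.93, 10.78, 10.63 and 10.78 (0.28). In each gene all 4 KO arrays were above WT, with gaps of 0.119, 0.038 and 0.059. A second bright Mcm6 probe differed by 0.25, and the dimmest switched between 4.40 and 6.89 across arrays of both groups.

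The other separated members were polymerase subunits and parts of the protein that coats single-stranded DNA. Pola2, of the polymerase that starts new strands, read 8.39, 8.56, 8.41 and 8.47 in KO and 8.35, 8.05, 7.99, 8.13 and 8.15 in WT. Pold2, of the polymerase that extends the lagging strand, read 10.07, 10.23, 10.04 and 10.05 against 9.95, 9.91, 9.88, 9.80 and 9.85, a difference of 0.22 (limma unadjusted p = 0.035). WT 8 was the nearest WT array in both. Rpa1 and Rpa3, which bind single-stranded DNA, differed by 0.14 and 0.16, with Rpa1 at 11.73 to 11.85 in KO and 11.58 to 11.69 in WT and Rpa3 at 10.69 to 10.78 and 10.49 to 10.64. Averaged over the list and set against the WT mean, KO arrays stood at 0.059, 0.158, 0.124 and 0.044 and WT arrays at 0.098, -0.001, -0.048, -0.061 and 0.012. KO 2 and KO 3 were above every WT array, and WT 8 was above KO 1 and KO 4, so the list as a whole overlapped where 7 of its genes did not.

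Promoters of these genes are shown because E2F factors act through short motifs there, searched here in the 250 bases before the annotated start in RefSeq (GRCm38.p6) as TTTCCCGC, TTTGGCGC, TTTCGCGC, TTTGCCGC and TTTGGCGG on both strands. At least 1 motif was held by 12 of 39 list members with a promoter in the table (30.8%). The share was 2.63% of all 27025 genes with a promoter there and 4.82% of the 8940 measured ones. A gene counted if any of its promoters held a motif. Among genes without overlap the shares were 6 of 107 higher genes (5.61%) and 1 of 66 lower genes (1.52%). Mcm6 held 3 motifs and Rpa1 held 1. Of the other list members with separated arrays, Pola2, Mcm2, Mcm4 and Pold2 had no match or no promoter to search, and for Rpa3 no result is given. In the stretches below, read towards the gene and ending at its start, capitals mark the motifs. Those of Mcm6 begin 110, 106 and 47 bases before the start, the first 2 overlapping, and that of Rpa1 begins 217 bases before it. A match describes the letters and is no evidence of binding.
Mcm6, chr1:128359706-128359855, minus strand: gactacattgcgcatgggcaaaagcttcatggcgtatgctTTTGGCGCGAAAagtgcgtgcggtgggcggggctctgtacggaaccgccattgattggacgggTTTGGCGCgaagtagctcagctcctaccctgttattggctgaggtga
Rpa1, chr11:75348384-75348633, minus strand: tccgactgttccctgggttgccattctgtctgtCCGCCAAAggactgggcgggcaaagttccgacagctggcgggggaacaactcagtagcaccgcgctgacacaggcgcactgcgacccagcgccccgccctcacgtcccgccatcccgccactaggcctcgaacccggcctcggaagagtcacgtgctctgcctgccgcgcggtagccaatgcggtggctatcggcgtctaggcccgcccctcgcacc

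Other cell cycle lists had smaller medians, also above 0. Of the pocket proteins, E2F factors and their partners, 15 of 27 were above 0 (median 0.041), beside 50.5% of all genes. For 1 of them, higher in KO, unadjusted p was under 0.05, beside 1.61% of all genes in this direction. That gene was E2f1, which drives S phase entry and is its own target, at 9.49, 9.89, 9.90 and 9.85 in KO and 9.67, 9.60, 9.42, 9.36 and 9.50 in WT. KO 1 lay among the WT arrays while the others were above them. Id2, an inhibitor that binds the retinoblastoma protein, read 8.68 to 9.04 in KO and 8.88 to 9.32 in WT. Of the G2/M list, 20 of 34 were above 0 (median 0.038). Beside Diaph3, its separated genes were Foxm1, the transcription factor of the G2/M program (7.60 to 7.74 in KO, 7.26 to 7.57 in WT), and the mitotic kinase Aurkb (7.62 to 7.67, 7.33 to 7.61). These were 3 of 34 members, beside 1.16% of all genes. Unadjusted p was under 0.05 for 2 higher members and 1 lower member, beside 1.61 and 0.957% of all genes. The lower one was Tpx2 (-0.287, limma unadjusted p = 0.041). A second Foxm1 probe differed by 0.12 with overlapping arrays.

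DNA damage and repair genes were above 0 in 23 of 26 cases (median 0.070). Unadjusted p was under 0.05 for 1, Chek1, beside 1.61% of all genes in this direction. Arrays separated for 1, Parp1, beside 1.16% of all genes. Parp1, which detects strand breaks, stood at 12.14 to 12.35 in KO and 11.94 to 12.13 in WT, a difference of 0.14. A second Parp1 probe also separated, with a difference of 0.22, and the last differed by 0.14 with overlap. The list mean of WT 12 was 0.122, above KO 1, KO 2 and KO 4. Of p53 targets and apoptosis genes, 11 of 21 were above 0 (median 0.002). Arrays separated for 1 of 21, the proapoptotic Bid, beside 1.16% of all genes. Bid stood at 9.49 to 9.66 in KO and 9.29 to 9.47 in WT, a difference of 0.16 (limma unadjusted p = 0.174) with a gap of 0.016.

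Sertoli cell genes showed no common direction. The identity list had 9 members above and 14 below 0 (median -0.026), the immature list 6 and 5 (0.003), the list of maturation and junction genes 10 and 13 (-0.028) and the list of niche and hormone signals 10 and 11 (-0.015). In the identity list and the list of maturation and junction genes, 0 of 23 members each had an unadjusted p under 0.05 and 0 were separated. Over all genes these shares were 2.56 and 1.94%, so counts of 0 lie near them. Unadjusted p was under 0.05 for 1 of 11 immature and 3 of 21 niche members, all higher, beside 1.61% of all genes in this direction. Thra was counted in both lists. In the identity list the smallest p-values belonged to Cst12, a cystatin (11.24, 11.30, 11.23 and 10.97 in KO; 11.19, 11.56, 11.38, 11.43 and 11.21 in WT), and to Drd4, a dopamine receptor gene (10.34 to 10.93 and 10.62 to 11.46), both overlapping. The tight junction gene Ocln read 7.79, 7.74, 7.99 and 7.96 in KO and 7.50, 7.54, 7.77, 7.71 and 7.63 in WT, a difference of 0.24 (limma unadjusted p = 0.103).

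The separated members of these lists were Thra, of the immature and niche lists, and Rarg, of the niche list. These were 1 of 11 immature and 2 of 21 niche members, beside 1.16% of all genes. Thra, the thyroid hormone receptor that limits Sertoli cell division, read 6.45, 6.44, 6.50 and 6.56 in KO and 6.37, 6.34, 5.89, 6.25 and 6.23 in WT, a difference of 0.27 (SE 0.12, limma unadjusted p = 0.049, adjusted p = 1). Rarg, a retinoic acid receptor, read 6.60, 6.56, 6.53 and 6.64 against 6.51, 6.52, 6.17, 6.30 and 6.25 (0.23, with a gap of 0.008). WT 10 was the lowest array of both genes. The other 2 Rarg probes differed by 0.08, where 2 KO and 2 WT arrays detected it, and by 0.19, both with overlap.

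Germ cell lists had medians below 0, and those of the pan-germ cell and meiotic lists depended on WT 12. Of pan-germ cell genes 4 were above and 15 below 0 (median -0.081, and -0.032 without WT 12). Unadjusted p was under 0.05 for 2 of 19, both lower, beside 0.957% of all genes in this direction. Arrays separated for 1, Piwil2, beside 0.776% of all genes. Stk31, a kinase-like gene of germ cells, read 5.00, 5.41, 5.12 and 5.08 in KO, where 2 arrays detected it, and 5.46, 5.71, 5.69, 5.27 and 5.72 in WT, a difference of -0.41. KO 2 lay above WT 11, so its arrays overlapped. Of meiotic prophase genes 5 were above and 17 below 0 (median -0.104), but the list mean was 0.614 in WT 12 and -0.274 to 0.107 in the other WT arrays, against -0.217 to -0.079 in KO, and without WT 12 the median was 0.013. Of spermatogonial genes 11 were above and 16 below 0 (median -0.048, and -0.049 without WT 12). Their differences ran from -0.25 to 0.3. Unadjusted p was under 0.05 for 1 higher and 2 lower members of 27, beside 1.61 and 0.957% of all genes. The lower ones were Neurog3 and Cdh1. Neurog3, a factor of spermatogonial progenitors, read 7.50 to 7.69 in KO and 7.64 to 8.08 in WT, and the adhesion protein Cdh1 5.01 to 5.28 and 5.19 to 5.46.

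Among somatic cells outside the Sertoli lineage, connective tissue genes were mostly above 0. Stroma and matrix genes were above 0 in 30 of 36 cases (median 0.059). Of them 2 had an unadjusted p under 0.05, Col1a1 and Tnc, beside 1.61% of all genes in this direction. Tnc, the matrix protein tenascin C, read 6.92, 6.45, 6.13 and 6.62 in KO and 5.92, 6.30, 6.06, 6.16 and 6.29 in WT (0.39, and 0.41 on a second probe). KO 3 lay among the WT arrays of Tnc, and it was also the one KO array with a list mean below 0 (-0.026, against 0.068 to 0.166). Peritubular myoid and smooth muscle genes were above 0 in 17 of 21 cases (median 0.075). Tagln, an actin-binding protein of smooth muscle, read 7.08, 7.11, 6.72 and 7.07 against 6.56, 6.70, 6.42, 6.75 and 7.03, and Myocd, a coactivator of smooth muscle genes, 7.31 to 7.50 against 6.63 to 7.49. Myocd had 2 further probes that differed by 0.25 and 0.35, beside 0.34 on the bright one.

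Leydig, immune and vascular lists varied between arrays of the same group. The Leydig list had 5 members above and 7 below 0 (median -0.080), and its mean was -0.258 and -0.283 in KO 1 and KO 3 and -0.061 and 0.061 in KO 2 and KO 4, with WT arrays from -0.201 to 0.129. Star, which carries cholesterol into mitochondria, read 4.66, 5.05, 4.72 and 5.87 in KO and 6.20, 6.52, 5.66, 4.59 and 5.95 in WT and was detected on 1 KO and 4 WT arrays. The highest KO array and the lowest WT array lay across each other's range, with a difference of -0.71 (SE 0.37). Macrophage and leukocyte genes were below 0 in 13 of 18 cases (median -0.116). Aif1, a macrophage calcium-binding protein, read 6.47 to 7.00 in KO and 6.88 to 7.13 in WT, while a dimmer Aif1 probe separated with a difference of -0.35 (limma unadjusted p = 0.0171). Endothelial genes were above 0 in 7 of 20 cases (median -0.022), with list means above every WT array in KO 1 and KO 2 and negative in KO 3 and KO 4. Red blood cell genes were high in KO 1 and KO 2 as well, at 0.285 and 0.211 while KO 3 had 0.004 and KO 4 -0.098.

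Few genes separated in the other lists. Actin regulators and formins had 17 of 29 above 0 (median 0.011), with Diaph3, Daam2 and the formin Fmnl2 (9.63 to 9.86 in KO, 9.50 to 9.63 in WT, a gap of 0.001) separated upward. In the cilium and centrosome list 21 of 25 genes were below 0 (median -0.050), while Crocc was the one separated member, and above. The list mean was 0.166 in WT 12, -0.062 to -0.021 in the other WT arrays and -0.079 to -0.022 in KO. Without WT 12 the median of that list was -0.006. Interferon response genes were at a median of 0.000. H2-K1, a class I histocompatibility gene with closely related copies, separated downward at 5.08 to 5.22 in KO and 5.23 to 5.76 in WT. It was near background, detected on 1 KO and 4 WT arrays, and its other probe on 0 KO arrays and 1 WT array. Ribosomal proteins were below 0 in 28 of 37 cases (median -0.048), and 13 of 15 cholesterol genes were above (median 0.070), with 0 members separated in either. Medians were 0.017 for glycolysis, -0.015 for oxidative phosphorylation, -0.039 for the proteasome and -0.062 for immediate early and heat shock genes, and 3 measured genes of epididymis, fat and striated muscle had 0.178. Across all lists, 17 of 619 genes were separated upward (2.75%) and 2 downward (0.323%), beside 1.16 and 0.776% of all genes.

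**Figure D3:**
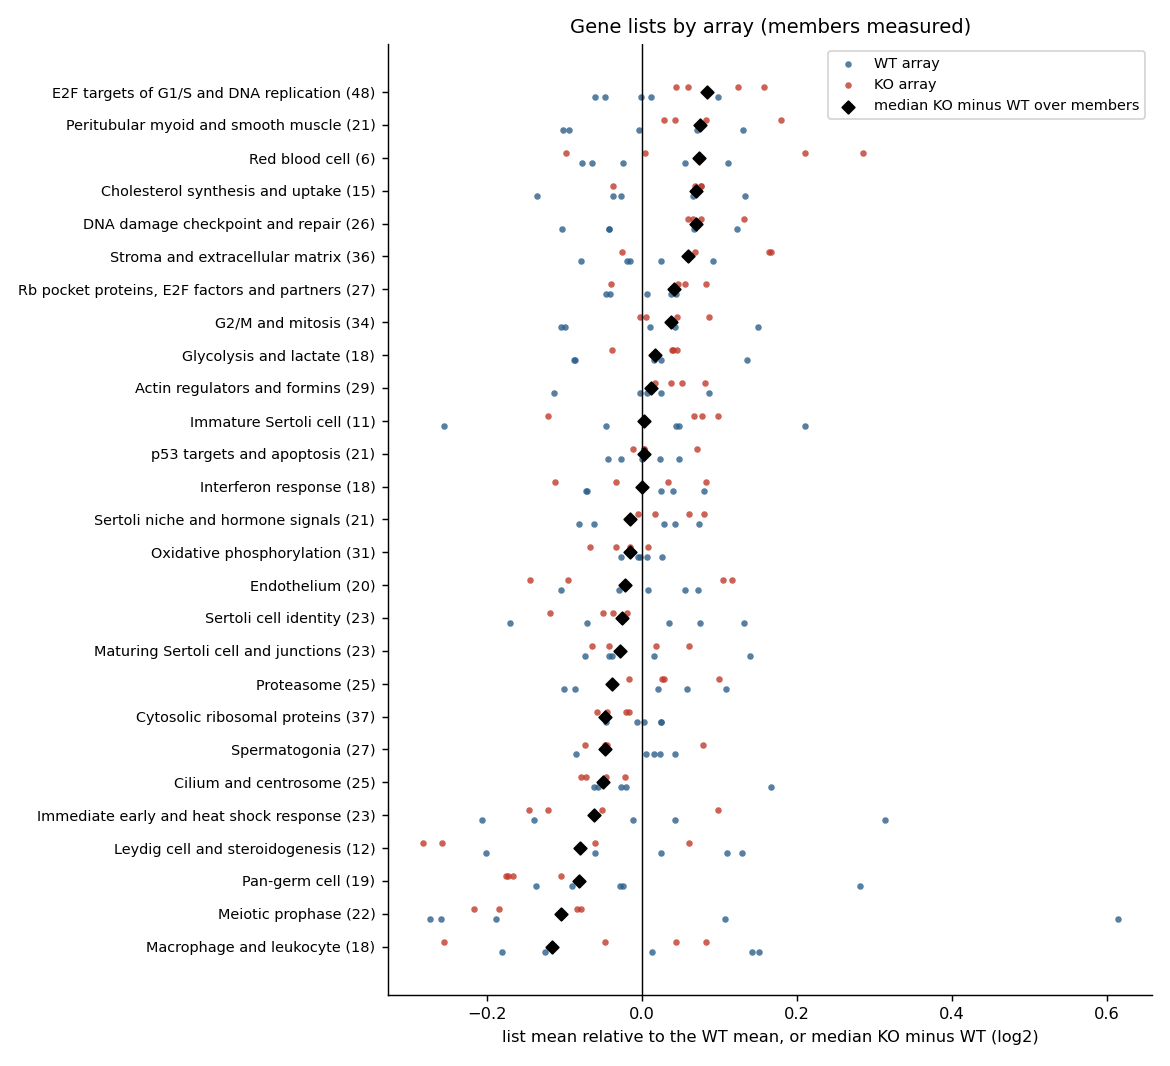
Each row is a gene list with its number of measured members; dots give the list mean of each WT (blue) and KO (red) array relative to the WT mean, and diamonds the median difference KO minus WT over members (log2, horizontal axis), for lists of 6 or more measured members. Dots of both groups overlap in the rows shown, and the meiotic prophase row has WT 12 far to the right at 0.614.

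The 10 genes that differed by at least 2-fold did so without separating. Psmd8, of the proteasome lid, read 9.88, 10.55, 9.68 and 9.70 in KO and 9.85, 9.71, 5.90, 6.04 and 9.86 in WT. WT 10 and WT 11 were low and the other 3 WT arrays were at the KO level (difference 1.68, SE 0.96, limma unadjusted p = 0.103). On chromosome 1, Cops8, of the COP9 signalosome, read 9.93, 9.89, 4.47 and 4.40 in KO and 4.37, 4.42, 4.42, 9.82 and 4.54 in WT (1.66). KO 1 and KO 2 were also the high KO arrays of Rpe, a pentose phosphate epimerase (1.21), Uap1, which makes UDP-N-acetylglucosamine (1.08), and Fcer1g, an Fc receptor chain (1.06), all on chromosome 1. Each of these 4 had 1 high WT array, WT 11 for Cops8, WT 9 for Rpe and WT 10 for Uap1 and Fcer1g.

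Gfpt1, the rate-limiting enzyme of hexosamine synthesis, was high in KO 2, KO 3 and WT 11 at 8.90 to 8.99 and stood at 5.31 to 5.82 elsewhere, while its other probes were near background, detected on 1 and 0 KO arrays and on 2 WT arrays each. Lower by 2-fold or more were Ero1b, an oxidase of the endoplasmic reticulum (-1.01), Ctsh, cathepsin H (-1.12, and -1.06 on a second probe), Igsf11, a cell adhesion gene (-1.18), and the pseudogene Gpr137b-ps (-1.28). Ero1b and Gpr137b-ps, both on chromosome 13, were low in KO 1 and KO 3, at 5.44 to 5.85 and 4.57 to 4.68. Probe reads of a pseudogene and its parent gene cannot be told apart here. Igsf11 was at 4.78 to 4.92 in KO 2, KO 3 and WT 12 and at 8.41 to 8.67 in the other 6 arrays, and its other probes differed by 0.18 and -0.70. In each of the 10 genes at least 1 array read like the other group. The cause of the switching was not tested.

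**Figure D4:**
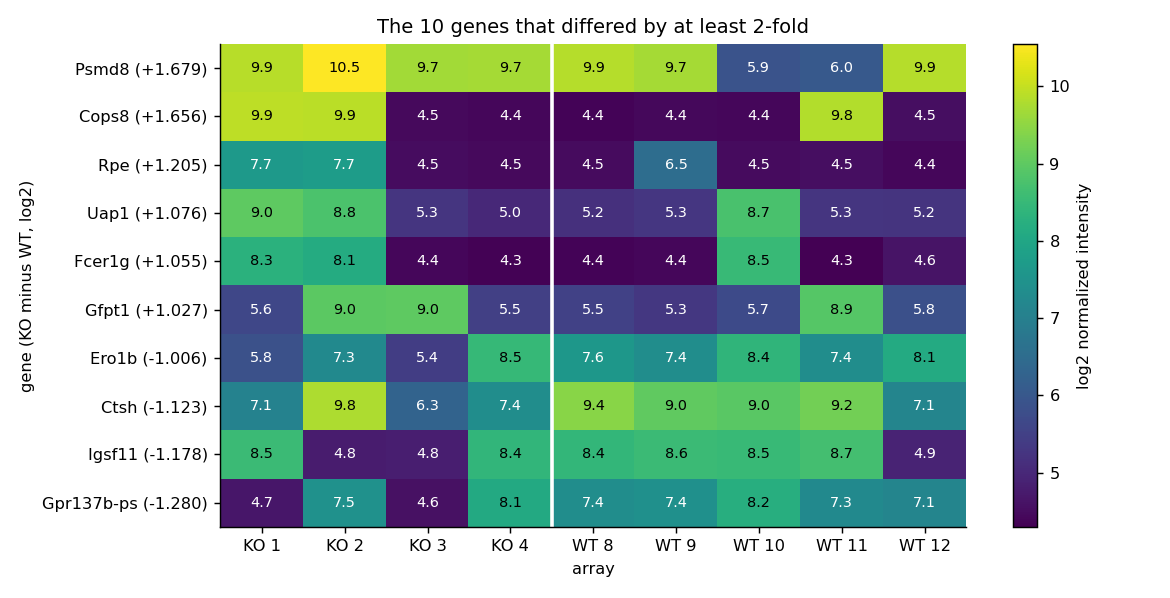
Log2 normalized intensity (colour and number) of the 10 genes that differed by at least 2-fold, in 4 KO and 5 WT arrays; the difference KO minus WT stands beside each gene. Single arrays switch between a high and a low level, as Cops8 does in KO 1, KO 2 and WT 11, and none of the rows separates KO from WT.

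Separated genes were counted by level and by chromosome, beside 1.94% of all genes. With genes ranked by mean level into 4 equal groups, 30 did not overlap in the dimmest group (1.08%), and 57, 61 and 67 in the next ones (2.06, 2.2 and 2.42%), while the median size of the difference fell from 0.0929 to 0.0545 from the dimmest to the brightest. Chromosome 11, which carries Plcd3, Jade2, Col1a1, Itga3, Thra and Rpa1, had 21 higher and 5 lower separated genes of 953 (2.73%). Shares were higher on chromosomes 18 and 19 (3.02% each) and 8 (2.86%), and a difference between chromosomes was not tested. Chromosome 14, with Rb1, had 4 higher and 5 lower of 363 (2.48%). Where a gene had another detected probe, its difference had the same sign in 2649 of 4174 genes (63.5%). For separated genes this held in 40 of 53 higher genes (75.5%) and 23 of 35 lower genes (65.7%), and the other probe also separated in 5 higher and 0 lower genes. Probes of a gene share the RNA of the same arrays and so are no independent replicates.

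The column names of the unnormalized table carry numbers whose meaning the labels do not state. The lower 6 numbers include KO 1, KO 2, WT 8 and WT 9, and the upper 6 include KO 3, KO 4, WT 10, WT 11 and WT 12, so KO and WT can be compared within each set. The differences had the same sign in both sets for 5799 genes (52.4%), with a Pearson r of -0.0558 and a Spearman rank correlation of 0.0534 across 11076 genes. Genes are not independent replicates, so these describe the tables only. The mean difference of the E2F target list was 0.060 among the low-numbered arrays and 0.116 among the high-numbered ones, and those of the pan-germ cell list were -0.112 and -0.189. The pocket protein and E2F factor list had -0.019 and 0.078, and the G2/M list -0.035 and 0.075. Stroma and matrix genes had 0.144 and 0.051, macrophage genes 0.151 and -0.188, and red blood cell genes 0.231 and -0.036. The pairs of the pocket protein, G2/M, macrophage and red blood cell lists differed in sign. Of the 18 macrophage genes, however, Fcer1g alone differed by 3.83 and -1.43, so its switching weighed heavily on both means. Rb1 differed by -0.30 and -0.28.

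**Figure D5:**
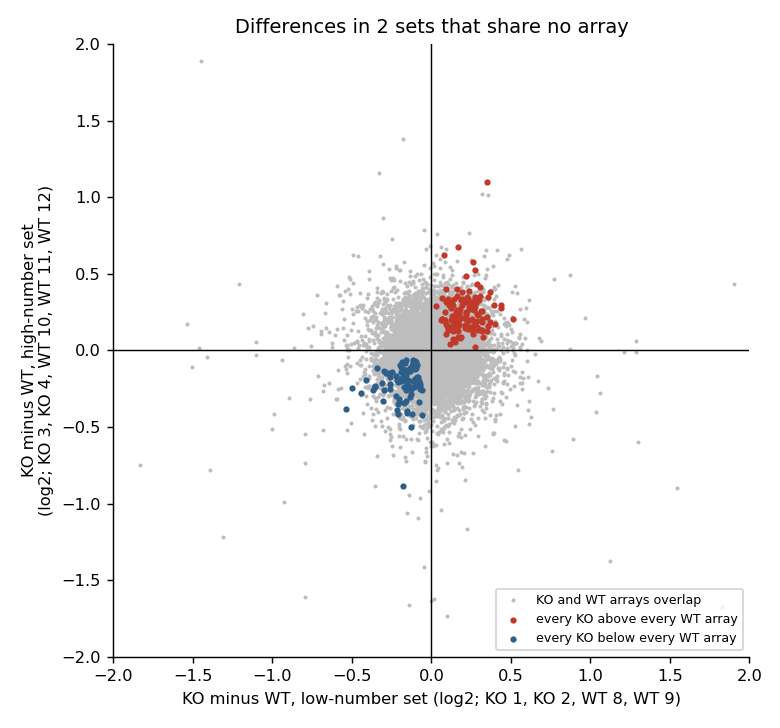
Each point is a gene, with its difference KO minus WT (log2) in the low-number arrays on the horizontal axis and in the high-number arrays on the vertical axis; 10 genes lie beyond 2 and are not drawn. The cloud shows no slope, and separated genes (red and blue) sit in the quadrants of equal sign, as their definition requires.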

How the data were processed

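Total RNA of whole testis was measured on 12 Illumina arrays, grouped by title into 4 KO, 5 WT and 3 SC-Rb+/- arrays. Per the file headers, the deposited unnormalized table gives 45281 probes, each with its linear bead intensity and detection p-value per array. The authors' processed table holds intensities with the same distribution on every array and was used as an alternative. No scanner software is named by the labels.

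In R 4.3.3 with limma 3.58.1 (data.table at version 1.17.8), neqc applied normexp background correction from the detection p-values (offset 16), quantile normalization and log2. A probe was kept where at least 3 arrays detected it at p under 0.05 (20170 probes). Platform annotation gave 1 gene symbol to 34885 probes, several to 18 and none to 10378; 34807 matched the GRCm38.p6 table by Entrez identifier and 0 symbols changed. The detected probe with the highest mean stood for each of 11076 genes, of which 4174 had several. The number of arrays limits the precision.

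KO and WT were compared in 1 lmFit and eBayes fit over all 12 arrays, and a Benjamini-Hochberg adjusted p under 0.05 counted as passing. Differences are KO minus WT on the log2 scale after an offset, which understates changes of dim genes. Bounds for genes detected in 1 group set the dim arrays at their lowest detected signal. The members of the 28 gene lists, the tests and the named genes were chosen with earlier results of these data known. Named were Rb1, the 12 genes with the smallest p in each direction, the 8 largest separated differences in each direction, genes beyond 2-fold or detected in 1 group only, and from each list the separated members or else the 2 smallest p-values. Of the 215 separated genes, 5 had Riken, Gm, LOC, EST or clone style names and were counted, not named. Promoters came from RefSeq, where the shown stretches hold no base after the start. The fit was tested on simulated data. Alternatives covered the samples in the fit, background, offset, scaling, the authors' values, filters, probes of a gene, variance model, array weights, the number set as a block, and arrays left out. Figures used Python 3.11.15 with matplotlib 3.10.9 and pandas 2.3.3.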

Additional observations from a re-analysis of the deposited data

Results flagged for a closer look

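For the 106 named genes, the array at either end of each group was compared with the rest of its group, 212 tests in all. In 28 of them the gap to the nearest array was larger than Dixon's 95% critical value allows. For genes not chosen by their values chance gives about 1 in 20. The named genes were chosen by these same values, so the 28 of 212 cannot be set against that rate.

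Of the genes beyond 2-fold, Cops8 stood apart at 9.82 in WT 11, Rpe at 6.52 in WT 9, Uap1 at 8.75 and Fcer1g at 8.52 in WT 10, and Gfpt1 at 8.90 in WT 11. Gpr137b-ps was high at 8.23 in WT 10, while Ctsh was low at 7.14 and Igsf11 at 4.92 in WT 12. These single WT arrays were at or near the level of KO arrays for Cops8, Uap1, Fcer1g and Gfpt1.

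Among genes with small p-values or wide separation, Col1a1 was high at 11.40 in WT 9, where the other WT arrays read 10.77 to 10.95. Zfp760 was high at 5.83 and Prcp low at 8.49 in KO 1. Osgin1, at 6.27, and the defensin gene Defb29, at 6.92, were high in KO 4. In KO 3, Daam2 was high at 7.85 and Lrrfip2 low at 6.68, and Lrrfip2 was also high at 7.26 in WT 12. Golm2 stood at 8.30 in WT 9, above 7.94 to 8.00 in the rest.

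List members stood apart in KO arrays. Pold2 was high at 10.23 in KO 2, E2f1 low at 9.49 in KO 1 and Parp1 high at 12.35 in KO 3. Tagln, at 6.73, Tyrobp, at 6.13, and Hspa1a, at 7.95, were low in KO 3. The red blood cell genes Hba-a1, which has a near-identical copy, and Alas2 were both low in KO 4, at 13.20 and 6.78, while the glycolytic Pfkl was high there at 10.87. In WT arrays the fat cell gene Adipoq was high at 5.48 in WT 10 and the glucose transporter gene Slc2a3 at 9.47 in WT 12.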

How the results depend on the processing

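Of 106 named genes, 103 kept their sign in every setting run. Igsf11 turned to 0.175 under the stricter filter, which removes its switching probe, Fdps to -0.062 with the mean of probes, since its second probe was lower, and Adipoq to -0.025 without KO 2 (up to 0.346 with another array left out). The count of separated genes was 87 with median scaling, 337 with no filter (19057 genes tested), 391 without WT 12, HET 6 and HET 7, and 301 to 528 with 1 array left out, where fewer arrays separate more easily. Unadjusted p was under 0.05 for 614 genes with only KO and WT arrays in the fit, 174 with median scaling, 637 with no filter, 1061 with array weights, 676 without WT 12, HET 6 and HET 7, and 191 to 368 with 1 array left out. Genes beyond 2-fold numbered 2 with no background correction, an offset of 50 or the authors' values, 4 with the stricter filter and 5 to 20 with 1 array left out (5 without KO 1, 20 without KO 4). The threshold was passed by 2 genes without WT 12, HET 6 and HET 7, Prcp (-0.816, limma adjusted p = 0.019) and Sncb, named after their values were seen, and by 0 in each other setting. Where no cause is named, it was not tested. The E2F target median ranged from 0.07 to 0.122 over 21 settings, the DNA damage and repair median from 0.049 to 0.114, and the stroma and matrix median from 0.032 to 0.113. The pan-germ cell median ranged from -0.124 to -0.032. Medians changed sign in 11 settings for the immature Sertoli cell list, 10 for interferon response, 7 for niche signals, 5 for glycolysis and 4 for Sertoli cell identity. No paired analysis was possible because KO and WT share no replicate number. Dim probes limit what can be seen, since signals near background are compressed by the offset.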
